A study of Mus musculus with 12 samples.

Results

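The genes described here encode inhibitory and costimulatory checkpoint receptors of T cells and a few proteins tied to them. They were the 10 genes of the deposited table whose symbols are *Pdcd1*, *Ctla4*, *Lag3*, *Havcr2*, *Tigit*, *Btla*, *Cd28*, *Icos*, *Tox* and *Cd274*, of 32051 genes in all, and all 10 passed the filter on low values that 13733 genes passed. RNA-seq was measured in T helper 9 (Th9) cells, which are CD4+ T cells that make IL-9. Naive CD4+ T cells isolated from the spleens of C57BL/6J mice were stimulated with anti-CD3 and anti-CD28 and polarized with IL-4 (10 ng/mL) and TGF-β (1 ng/mL) while IL-12 and IFN-γ were blocked with antibodies, and RNA was taken on day 4. The 4 groups, each of 3 libraries, received the vehicle (DMSO), endomelipeptide A (EpA, a cyclic lipopeptide from an endophytic fungus), fatostatin with DMSO (fatostatin inhibits the lipogenic transcription factor SREBP), or EpA together with fatostatin. The labels do not say whether libraries of a group came from separate mice or cultures, so p-values measure only the spread between these libraries. Every group was stimulated with an antibody to CD28, itself the product of a gene described here.

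A T cell that binds antigen integrates the signal of its antigen receptor with signals from coreceptors. CD28 and ICOS add a costimulatory signal through PI3-kinase. CTLA-4 shares the ligands CD80 and CD86 with CD28 and removes them from antigen-presenting cells. PD-1 (*Pdcd1*), BTLA and TIGIT carry tyrosine motifs that recruit phosphatases, LAG-3 binds MHC class II, and TIM-3 (*Havcr2*) binds galectin-9 among other ligands. PD-L1 (*Cd274*) is the ligand of PD-1 and is made by activated T cells as well as by antigen-presenting cells. TOX is a nuclear factor that maintains inhibitory receptor expression in chronically stimulated, exhausted T cells. Most of these genes are switched on by activation itself, so in a culture of this kind they mark activation as well as inhibition.

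The genes lie on several chromosomes (GRCm38). *Cd28* (chr1:60716800-60773359), *Ctla4* (chr1:60887000-60915832) and *Icos* (chr1:60977927-61000320) are neighbors on the forward strand, with 113640 bp between the first pair, 62094 bp between the second, and 0 protein-coding genes between *Cd28* and *Ctla4* or between *Ctla4* and *Icos*. *Pdcd1* (chr1:94038305-94052553) lies on the same chromosome but 293 coding genes away from *Ctla4*. *Tigit* (chr16:43648867-43664146) and *Btla* (chr16:45224315-45257670) share a chromosome, whereas *Lag3* (chr6:124904361-124911705), *Havcr2* (chr11:46454935-46481255), *Tox* (chr4:6686353-6991557) and *Cd274* (chr19:29367455-29388095) stand alone. Exons of *Tox* share 260 bases with an antisense gene, *Gm11802*, and exons of *Cd274* share 511 bases with an antisense gene, AC119228.1. The sources do not state whether strand was used in counting, so reads of these overlaps cannot be told apart. Exons of the other 8 genes share 0 bases with any annotated gene.

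A promoter table from RefSeq (GRCm38.p6) matched 6 of the 10 genes (*Pdcd1*, *Ctla4*, *Havcr2*, *Tigit*, *Btla* and *Cd274*). The 250 bases before the start are printed for *Ctla4* and *Cd274*, whose levels moved together across the libraries, and for *Pdcd1*, which moved differently. Capitals mark GGAAA on either strand (TTTCC on the strand printed), the core bound by NFAT, a transcription factor that the antigen receptor activates. The *Ctla4* start in RefSeq lies downstream of the outer end of its GRCm38 gene model, on the forward strand (chr1:60908775-60909024). The *Cd274* window is also on the forward strand (chr19:29367188-29367437), and that of *Pdcd1* is on the reverse strand (chr1:94052554-94052803).
*Ctla4*: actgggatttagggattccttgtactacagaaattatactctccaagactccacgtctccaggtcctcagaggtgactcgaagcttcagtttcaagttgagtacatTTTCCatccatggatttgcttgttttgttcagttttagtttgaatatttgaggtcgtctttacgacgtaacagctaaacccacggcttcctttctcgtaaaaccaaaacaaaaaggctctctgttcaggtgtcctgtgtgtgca
*Cd274*: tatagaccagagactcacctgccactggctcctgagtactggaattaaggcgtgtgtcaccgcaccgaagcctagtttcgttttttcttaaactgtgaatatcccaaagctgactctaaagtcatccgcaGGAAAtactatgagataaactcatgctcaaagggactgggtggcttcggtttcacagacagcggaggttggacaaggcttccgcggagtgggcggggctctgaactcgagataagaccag
*Pdcd1*: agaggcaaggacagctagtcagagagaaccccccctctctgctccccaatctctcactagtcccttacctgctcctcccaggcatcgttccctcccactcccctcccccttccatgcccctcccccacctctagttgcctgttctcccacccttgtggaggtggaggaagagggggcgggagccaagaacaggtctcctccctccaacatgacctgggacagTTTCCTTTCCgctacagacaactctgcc
Over the 300 bases from 250 before to 50 after the start, GGAAA was present in 4 of the 6 promoters (*Pdcd1*, *Ctla4*, *Tigit* and *Cd274*) and in 61.3% of 32851 promoters of the same length. *Ctla4* had 1 match, at position -144, and *Cd274* had 2, at -120 and at -1, of which the second spans the start and is not printed. *Pdcd1* had 2 adjacent matches, at -28 and -23. TGANTCA, the element of AP-1, was found in 1 of the 6 (*Havcr2*, at -200) and in 7.81% of all promoters, and TCACNCCAC, a sterol regulatory element bound by SREBP, in 0 of the 6 and in 1.24%. The 3 motifs did not overlap one another in these windows. Matches are letters in a window and show nothing about binding.

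Between 36019739 and 43656682 reads per library fell on the genes of the table, as recovered from gene lengths and the FPKM values, which are fragment counts scaled by gene length and library size. At these depths 1 read on a 1-kb gene was worth 0.0225 to 0.0273 FPKM. Libraries of a group had pairwise correlations of 0.985 to 0.988 over the log2 values of genes. The CD4 T cell markers, against which the labelled cell type was checked, summed to 863 to 1108 FPKM, whereas 10 myeloid and dendritic cell markers summed to 1.06 to 2.17 FPKM, with *Clec9a* at 0 in every library. The cytokine that defines Th9 cells, *Il9*, averaged 54.6 ± 3.4 FPKM (SD, n = 3 here and below) with DMSO, 640.0 ± 17 with EpA, 66.5 ± 5.2 with fatostatin and 821 ± 30 with both. *Srebf1*, which encodes SREBP1, averaged 37.3 ± 0.83, 30.9 ± 0.5, 34.2 ± 0.64 and 29.1 ± 0.34 FPKM in the same order.

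The 10 genes were expressed at very different levels in these Th9 cells. FPKM is scaled by gene length, so levels can be compared between genes. In the DMSO group *Ctla4* was highest at 227 ± 0.58 FPKM, followed by *Icos* (70.3 ± 1.3), *Cd28* (37.3 ± 0.75), *Lag3* (16.3 ± 0.64), *Pdcd1* (11.5 ± 0.094), *Tigit* (10.5 ± 0.16), *Cd274* (6.15 ± 0.16), *Btla* (5.47 ± 0.037), *Havcr2* (0.561 ± 0.14) and *Tox* (0.25 ± 0.067). No 2 neighbors in that order overlapped across the DMSO libraries. *Havcr2* and *Tox* rested on few reads, 25 to 85 and 14 to 108 per library, whereas *Ctla4* rested on 19388 to 29148. The top of the order, *Ctla4* above *Icos* above *Cd28*, was the same in every group. Lower down it changed: with EpA, *Cd274*, *Btla* and *Tigit* overlapped, and with both compounds *Cd274* stood next after *Cd28* at 11.2 ± 0.59 FPKM, overlapping *Lag3* (11 ± 1.1) and *Lag3* overlapping *Btla* (10.8 ± 0.38). *Pdcd1*, at 9.69 ± 0.38, also overlapped *Lag3* in that group.

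**Figure D1:**
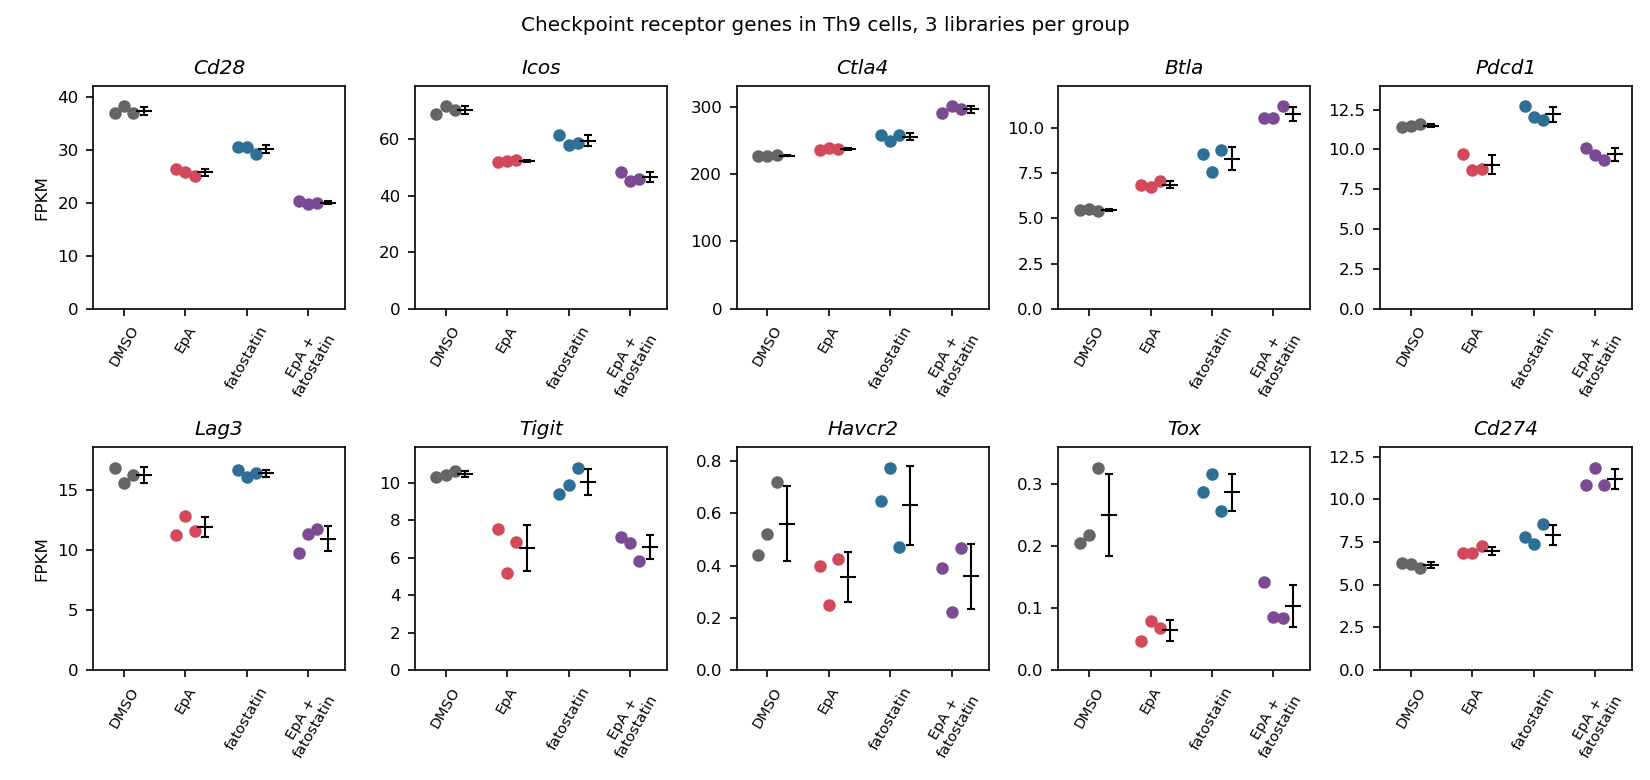
FPKM of each gene (y axis, from 0, a separate scale per panel) in the 3 libraries of each group (x axis), with the mean and SD as a black bar beside the points. *Cd28* and *Icos* step down and *Ctla4*, *Btla* and *Cd274* step up from DMSO to both compounds, whereas *Pdcd1*, *Lag3*, *Tigit* and *Tox* are low in the 2 groups that received EpA.

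The first comparison asked what EpA changes in Th9 cells. With EpA against DMSO, 6 of the 10 genes fell (*Cd28*, *Icos*, *Pdcd1*, *Lag3*, *Tigit* and *Tox*) and 3 rose (*Btla*, *Cd274* and *Ctla4*) at an adjusted p below 0.05. Without any 1 of the 6 libraries, 1 rose (*Btla*), since the calls of *Cd274* and *Ctla4* were lost. Among all tested genes 13.1% fell and 14.3% rose by that rule. Only *Tigit* and *Tox* also passed a fold change of 1.5, as did 3.38% of all tested genes. The median log2 fold change was -0.44 over the 10 genes and 0.0023 over all tested genes. The effect of EpA can be read again, in other libraries, in cells that also received fatostatin. With both compounds against fatostatin, the same 6 genes fell and the same 3 rose, where 13.3% of all tested genes fell and 16.2% rose, and 2 genes (*Tigit* and *Tox*) passed 1.5-fold, as did 3.75% of all tested genes. *Lag3* and *Cd28*, both at -0.58 on the log2 scale, lay just under that threshold, and with median-ratio scaling 4 genes passed it. The median log2 fold change was -0.47 over the 10 genes and 0.012 over all tested genes. These 2 comparisons share no library.

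The second pair of comparisons asked what fatostatin changes. Fatostatin against DMSO raised *Ctla4*, *Btla* and *Cd274* and lowered *Cd28* and *Icos*, that is 3 and 2 genes of 10, where 7.69% of all tested genes rose and 6.31% fell. *Btla* alone passed 1.5-fold (1.51-fold), as did 1.86% of all tested genes. Both compounds against EpA gave the same 3 higher and the same 2 lower genes, where 9.22% of all tested genes rose and 6.79% fell, and *Btla* and *Cd274* passed 1.5-fold, as did 1.99% of all tested genes. The median log2 fold change over the 10 genes was 0.12 for fatostatin against DMSO and 0.06 for both compounds against EpA (0.0054 and 0.015 over all tested genes). *Pdcd1*, *Lag3*, *Tigit*, *Havcr2* and *Tox* did not pass the test in either fatostatin comparison. The fatostatin comparisons share no library with each other, but each shares the libraries of a group with each EpA comparison, so their values are given side by side and not correlated.

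**Figure D2:**
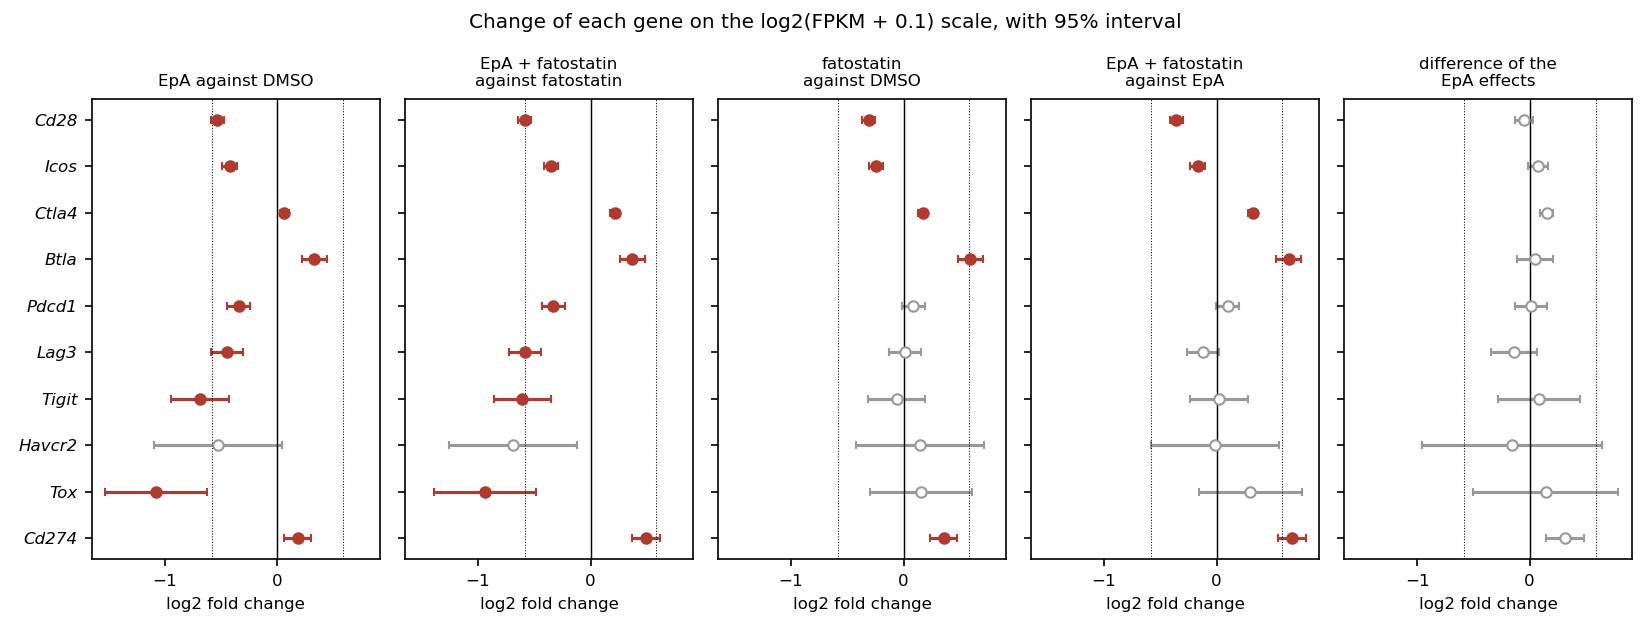
Log2 fold change of each gene on the log2(FPKM + 0.1) scale (x axis) in the 4 comparisons and for the EpA effect on fatostatin minus that without it, with 95% intervals from limma. Filled red points passed an adjusted p below 0.05, open gray points did not, and dotted lines mark a 1.5-fold change. *Cd28*, *Icos*, *Ctla4*, *Btla* and *Cd274* passed in all 4 comparisons, and *Pdcd1*, *Lag3*, *Tigit* and *Tox* passed in the 2 comparisons that add EpA. For EpA against DMSO, the calls of *Ctla4* and *Cd274* were lost when any 1 library of these groups was left out.

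Some markers of cell identity changed with EpA as well. At an adjusted p below 0.05, 13.1% of all tested genes fell and 14.3% rose with EpA. Beside these shares, counts of 1 gene in such short lists say little. The summed FPKM of the 7 CD4 T cell markers in the table was 1063 to 1089 with DMSO and 873 to 883 with EpA, 1076 to 1108 with fatostatin and 863 to 892 with both, and 5 of the 7 fell and 1 rose with EpA. The 5 natural killer cell markers summed to 11.9 to 13.5 FPKM with DMSO, 6.91 to 7.76 with EpA, 11.4 to 12.4 with fatostatin and 6.58 to 8.31 with both, carried by *Nkg7* and *Klrd1*, which both fell with EpA, while *Ncr1*, *Klrb1c* and *Klra8* averaged below 0.1 FPKM. The CD8 T cell markers summed to 8.71 to 9.79, 7.85 to 8.57, 8.55 to 10.2 and 6.98 to 8.60 FPKM in the same order (1 of 2 fell with EpA), and the B cell markers to 6.01 to 7.94, 5.24 to 6.25, 7.57 to 8.70 and 6.34 to 6.93 (1 of 3 tested fell). The regulatory T cell markers summed to 196 to 199 FPKM with DMSO, 236 to 237 with EpA, 144 to 149 with fatostatin and 172 to 178 with both, most of it *Il10* and *Tnfrsf18*. Of these 5 markers 2 rose with EpA, *Il10* from 110.1 ± 0.87 to 136 ± 2 FPKM and *Tnfrsf18* from 70.5 ± 2.6 to 84.1 ± 1.4, and 2 fell, *Foxp3* from 1.87 ± 0.08 to 1.2 ± 0.17 and *Lrrc32* from 2.58 ± 0.048 to 2.17 ± 0.26. The myeloid and dendritic cell markers, 5 of 10 of which averaged below 0.1 FPKM, summed to 1.06 to 1.39 FPKM with DMSO and 1.16 to 1.96 with EpA, 1.30 to 1.73 with fatostatin and 1.47 to 2.17 with both. Of the 5 tested, 1 was called higher with EpA and with fatostatin, *Lyz2*, from 0.0371 ± 0.035 FPKM with DMSO to 0.186 ± 0.062 and 0.2 ± 0.044. In the DMSO group *Lyz2* lay below the filter of 0.1 FPKM, so it was tested only through the groups where it was higher. Its call therefore carries no weight here. The part of these shifts in the changes of the checkpoint genes was not tested, and in bulk RNA fewer cells of a type and less RNA per cell cannot be told apart.

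*Cd28*, the main costimulatory receptor of naive and activated T cells, fell in every comparison. Its FPKM were 36.8, 38.2 and 36.9 with DMSO, 30.5, 30.4 and 29.1 with fatostatin, 26.3, 25.8 and 25.1 with EpA and 20.3, 19.8 and 19.9 with both. The 4 groups formed 4 separate steps with no overlap, DMSO highest and both compounds lowest, at means of 37.3 and 20.0. For this gene and those below, such separation of 2 groups was common among all tested genes. The share without overlap was 42.4% for EpA against DMSO and 31.3% for fatostatin against DMSO. It was 33.3% for both compounds against EpA and 41.4% for both against fatostatin. EpA lowered *Cd28* by 31% (log2 fold change of -0.53, SE 0.026, adjusted p = 1.35e-07), and it did so by 33.3% in cells on fatostatin (log2 fold change of -0.58, SE 0.026, adjusted p = 5.93e-08). Fatostatin lowered it by 19.4% without EpA (log2 fold change of -0.31, SE 0.026, adjusted p = 1.4e-05) and by 22.1% with EpA (log2 fold change of -0.36, SE 0.026, adjusted p = 4.24e-06).

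*Icos*, the costimulatory receptor that activated T cells acquire, followed the same steps. Levels in FPKM were 69.0, 71.6 and 70.2 with DMSO, 61.6, 58.1 and 58.6 with fatostatin, 51.9, 52.4 and 52.6 with EpA and 48.5, 45.3 and 45.8 with both. Again no groups overlapped and the order of the groups was that of *Cd28*. The fall with EpA was 25.6% (log2 fold change of -0.43, SE 0.029, adjusted p = 1.7e-06), and in cells on fatostatin it was 21.6% (log2 fold change of -0.35, SE 0.029, adjusted p = 5.39e-06). The fall with fatostatin was 15.5% (log2 fold change of -0.24, SE 0.029, adjusted p = 0.000195), and 11% on top of EpA (log2 fold change of -0.17, SE 0.029, adjusted p = 0.00241).

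*Ctla4*, which lies between these genes on the chromosome and encodes the inhibitory counterpart of CD28, went the other way. Its FPKM were 227, 227 and 228 with DMSO, 236, 239 and 237 with EpA, 258, 249.7 and 259 with fatostatin and 291, 301 and 297 with both. The 4 groups did not overlap, and they stepped up from DMSO through EpA and fatostatin to both. With EpA alone *Ctla4* was 4.33% higher (log2 fold change of 0.061, SE 0.018, adjusted p = 0.027), a call that was lost when any 1 of the 6 libraries was left out (adjusted p of 0.0532 to 0.0853), without the intensity trend (0.0909), and with all genes above 0 tested (0.0501). The other rises kept their call under every alternative: 12.4% with fatostatin (log2 fold change of 0.17, SE 0.018, adjusted p = 8.9e-05), 16% with EpA in cells on fatostatin (log2 fold change of 0.21, SE 0.018, adjusted p = 6.25e-06), and 25% with fatostatin in cells on EpA (log2 fold change of 0.32, SE 0.018, adjusted p = 5.1e-07).

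With both compounds against DMSO, the ratios of *Ctla4* to its neighbors shifted further than any of the 3 genes did alone. The ratio of *Ctla4* to *Cd28* FPKM was 6.10 ± 0.13 with DMSO, 9.22 ± 0.24 with EpA, 8.51 ± 0.34 with fatostatin and 14.8 ± 0.45 with both compounds. The ratio of *Ctla4* to *Icos* was 3.24 ± 0.065, 4.54 ± 0.032, 4.30 ± 0.11 and 6.38 ± 0.34 in the same order. In each of these ratios EpA and fatostatin stood close together, between DMSO and the combination. The ratio of *Cd274* to *Pdcd1*, ligand to receptor, was 0.535 ± 0.018 with DMSO, 0.650 ± 0.062 with fatostatin, 0.773 ± 0.065 with EpA and 1.16 ± 0.080 with both, so that the ligand transcript exceeded the receptor transcript in all 3 libraries of the last group and in none of the others. These ratios restate the levels above and were not tested.

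**Figure D3:**
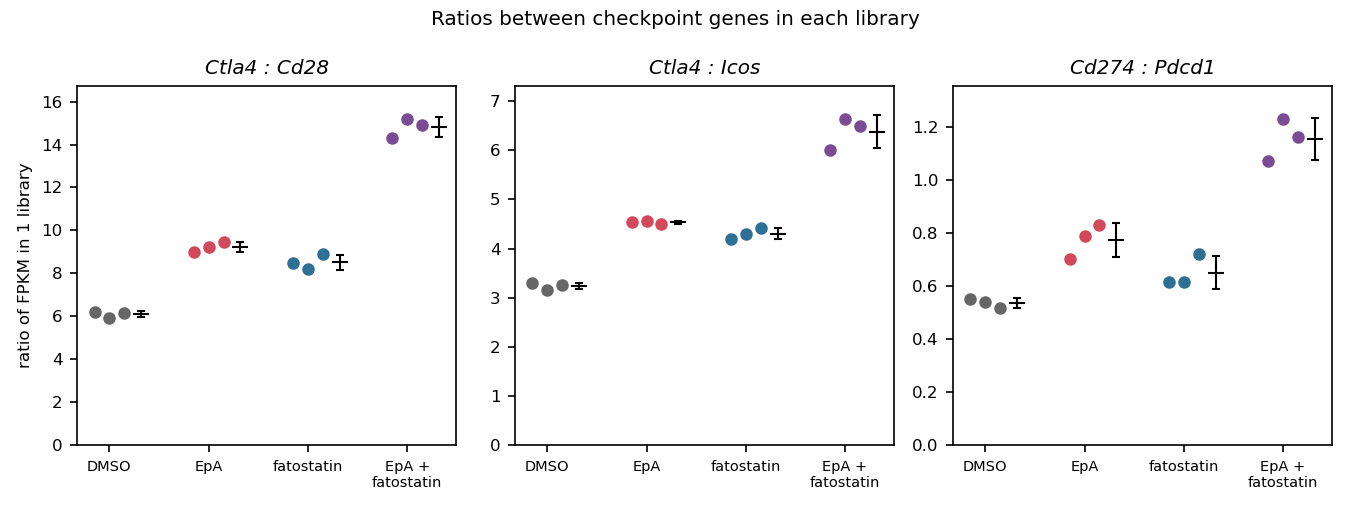
Ratio of the FPKM of 2 genes within each library (y axis, from 0) by group (x axis), with the mean and SD as a black bar beside the 3 points. The ratio of *Ctla4* to *Cd28* runs from 5.94 to 6.18 with DMSO and from 14.3 to 15.2 with both compounds, and the ratio of *Cd274* to *Pdcd1* is above 1 only in the libraries of both compounds.

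*Pdcd1* encodes PD-1, the receptor most often blocked in cancer immunotherapy. Its FPKM were 11.4, 11.5 and 11.6 with DMSO and 9.73, 8.69 and 8.75 with EpA, and 12.7, 12 and 11.9 with fatostatin and 10.1, 9.63 and 9.33 with both. The EpA libraries were all below the DMSO libraries and those of both compounds all below those of fatostatin. EpA lowered *Pdcd1* transcript by 21.1% (log2 fold change of -0.34, SE 0.047, adjusted p = 0.000253), and by 20.4% in cells on fatostatin (log2 fold change of -0.33, SE 0.047, adjusted p = 0.0003). Each fall kept its call under every alternative, with log2 fold changes between -0.39 and -0.31 for the first. The fatostatin libraries lay above the DMSO libraries, by 6.05%, but the difference did not pass the test (adjusted p = 0.282, 95% interval of the log2 fold change -0.018 to 0.19), and neither did that of 6.99% on top of EpA (adjusted p = 0.196). The second of these passed when replicate 1 of EpA, the highest of its group, was left out (log2 fold change of 0.15, adjusted p = 0.0384). The transcript does not measure receptor on the cell surface. By flow cytometry the paper reported the other direction for the protein, with more PD-1 in Th9 cells cultured with EpA. It also reported more PD-1 with fatostatin alone, and no further increase when fatostatin was added to EpA. Why transcript and protein differ was not tested.

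*Lag3*, a CD4-related receptor for MHC class II, fell in the same pair of comparisons. The *Lag3* libraries read 16.9, 15.6 and 16.3 with DMSO, 16.7, 16.1 and 16.5 with fatostatin, 11.3, 12.9 and 11.6 with EpA and 9.76, 11.4 and 11.7 FPKM with both. The libraries split into an upper set without EpA and a lower set with EpA, and within each set the groups overlapped. The fall with EpA was 26.6% (log2 fold change of -0.45, SE 0.066, adjusted p = 0.000453), and in cells on fatostatin 33.2% (log2 fold change of -0.58, SE 0.066, adjusted p = 5.78e-05). For fatostatin against DMSO the 95% interval of the log2 fold change ran from -0.13 to 0.16, and for both compounds against EpA from -0.27 to 0.023.

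*Tigit*, the receptor for the nectin-like ligand CD155, had the same split with a wider spread. The libraries had FPKM of 10.3, 10.4 and 10.6 with DMSO, 9.42, 9.88 and 10.8 with fatostatin, 7.55, 5.19 and 6.84 with EpA and 7.09, 6.78 and 5.84 with both. All 6 libraries with EpA lay below all 6 without it, and replicate 2 of EpA was the lowest. *Tigit* fell by 38% with EpA (log2 fold change of -0.69, SE 0.12, adjusted p = 0.00109) and by 34.3% with EpA in cells on fatostatin (log2 fold change of -0.61, SE 0.12, adjusted p = 0.00228). Without replicate 2 of EpA the first fall was -0.53 on the log2 scale, under the 1.5-fold threshold.

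*Havcr2*, which encodes TIM-3, stayed near the lower limit of what these libraries resolve. It had FPKM of 0.442, 0.522 and 0.718 with DMSO, 0.397, 0.249 and 0.425 with EpA, 0.646, 0.775 and 0.472 with fatostatin and 0.389, 0.221 and 0.466 with both. The EpA libraries lay below the DMSO libraries and those of both compounds below those of fatostatin, each by a small margin. Among all tested genes 42.4% and 41.4% were without overlap in these comparisons, in either direction. No comparison passed the test: the log2 fold change was -0.53 for EpA against DMSO (SE 0.26, adjusted p = 0.16) and -0.69 for both compounds against fatostatin (SE 0.26, adjusted p = 0.0666), or -0.26 with a pseudocount of 1. The latter passed when replicate 3 of fatostatin (adjusted p = 0.0477) or replicate 3 of both compounds (0.0457) was left out, and in a test on recovered reads with voom (0.0286), so at this depth the size of the change was not settled.

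*Tox* was the least expressed of the 10 genes and had the largest log2 fold change of them on the log2(FPKM + 0.1) scale. Its FPKM were 0.205, 0.219 and 0.326 with DMSO, 0.287, 0.317 and 0.256 with fatostatin, 0.0463, 0.0792 and 0.0683 with EpA and 0.142, 0.0854 and 0.0834 with both, values that rest on 57 to 108 reads per DMSO library and 14 to 24 per EpA library. Libraries with EpA were all below those without it. On the log2(FPKM + 0.1) scale *Tox* fell by 1.08 with EpA (SE 0.21, adjusted p = 0.00251) and by 0.93 with EpA in cells on fatostatin (SE 0.21, adjusted p = 0.00541). The pseudocount of 0.1 FPKM understates changes at this level: with 0.01 the first fall was -1.80, with 1 it was -0.23, and on recovered reads it was -1.95, each past an adjusted p of 0.05. The second fall was -1.42, -0.22 and -1.49 in the same order. *Tox2*, a related nuclear factor at 1.48 ± 0.072 FPKM with DMSO and 1.75 ± 0.29 with EpA, did not pass the test with EpA (adjusted p = 0.238) and fell with fatostatin (log2 fold change of -0.70, SE 0.12, adjusted p = 0.00277).

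*Btla*, an inhibitory receptor that binds HVEM (*Tnfrsf14*), rose in all 4 comparisons. The *Btla* libraries had FPKM of 5.46, 5.51 and 5.43 with DMSO, 6.85, 6.72 and 7.07 with EpA, 8.57, 7.60 and 8.79 with fatostatin and 10.6, 10.6 and 11.2 with both. The groups did not overlap, and the libraries with both compounds were the highest. *Btla* rose by 25.4% with EpA (log2 fold change of 0.33, SE 0.05, adjusted p = 0.000601), by 51% with fatostatin (log2 fold change of 0.59, SE 0.05, adjusted p = 1.4e-05), by 29.5% with EpA on fatostatin (log2 fold change of 0.37, SE 0.05, adjusted p = 0.000213) and by 55.9% with fatostatin on EpA (log2 fold change of 0.64, SE 0.05, adjusted p = 6.93e-06). The fatostatin change sat at the 1.5-fold threshold and fell under it without replicate 1 or replicate 3 of fatostatin.

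*Cd274*, the ligand of PD-1, rose along with *Btla*. Its libraries had FPKM of 6.27, 6.21 and 5.98 with DMSO, 6.84, 6.84 and 7.26 with EpA, 7.83, 7.38 and 8.55 with fatostatin and 10.8, 11.9 and 10.9 with both, again with no overlap between groups. The rise with EpA alone was small, 13.2% (log2 fold change of 0.18, SE 0.055, adjusted p = 0.0328), and its call was lost when any 1 of the 6 libraries was left out (adjusted p of 0.0546 to 0.114) and with all genes above 0 tested (0.0506). It was also lost with the replicate number as a block. The rise was 28% with fatostatin (log2 fold change of 0.36, SE 0.055, adjusted p = 0.00122), 40.8% with EpA on fatostatin (log2 fold change of 0.49, SE 0.055, adjusted p = 5.31e-05) and 59.2% with fatostatin on EpA (log2 fold change of 0.67, SE 0.055, adjusted p = 9.72e-06). *Pdcd1lg2*, which encodes the other PD-1 ligand PD-L2, averaged 8.15 ± 0.32, 9.65 ± 0.27, 11.7 ± 0.52 and 14.3 ± 0.68 FPKM in the order DMSO, EpA, fatostatin and both, and rose in the same 4 comparisons (adjusted p of 8.6e-06 to 0.00216).

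Whether fatostatin altered the effect of EpA was tested as the EpA effect on fatostatin minus that without it. At an adjusted p below 0.05, 0 of the 10 genes passed with limma on log2 FPKM, where 0.0364% of all tested genes passed as higher and 0.00728% as lower. An unadjusted p below 0.05 was reached by 7.89% of all tested genes and by 2 of the 10, *Ctla4* (difference 0.15, 95% interval 0.096 to 0.21, adjusted p = 0.0868) and *Cd274* (difference 0.31, 95% interval 0.14 to 0.49, adjusted p = 0.342), both with a larger rise in cells on fatostatin. On recovered reads with voom *Ctla4* passed (adjusted p = 0.0129) and the other 9 genes did not; over the other alternatives the adjusted p of *Ctla4* ran from 0.0668 to 0.432. For *Pdcd1* the difference was 0.013, with an interval of -0.13 to 0.16, and for *Cd28* it was -0.049, with an interval of -0.13 to 0.033. For *Havcr2* and *Tox* the intervals (-0.96 to 0.65 and -0.50 to 0.78) were too wide to limit the difference.

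Across the 12 libraries the 10 genes fell into sets by the likeness of their log2 levels. These correlations describe 4 groups of 3 libraries from the same fit and are largely set by the group means. *Ctla4*, *Cd274* and *Btla* varied together (Pearson r of 0.963 to 0.989 between pairs), and so did *Cd28* and *Icos* (0.984), with -0.87 to -0.78 between the sets. *Pdcd1*, *Lag3*, *Tigit* and *Tox* also varied together (0.793 to 0.922), but the sets were not sharply divided. *Lag3* was closer to *Cd28* (0.858) and *Icos* (0.843) than to *Tox* (0.826), *Pdcd1* (0.809) or *Tigit* (0.793). *Tigit* was also close to *Cd28* (0.797) and *Icos* (0.823), and *Havcr2* was closest to *Tox* (0.767). Among 10298 genes with at least 1 FPKM, the pattern of *Ctla4* was most like that of *Cd274* and the reverse (0.989), and the pattern of *Cd28* was most like that of *Itgae* (0.994), which averaged 20.0 FPKM with DMSO, 8.53 with EpA, 12.3 with fatostatin and 5.61 with both. For *Pdcd1* the 5 most similar genes were *Aak1* (0.986), *Dhx57* (0.985), *Frmpd1* (0.978), *Stat4* (0.978) and *Abca2* (0.974). *Stat4*, the signal transducer of IL-12, averaged 10.3 FPKM with DMSO, 6.44 with EpA, 11.5 with fatostatin and 7.77 with both. The nearest genes of the others were *Rin3* for *Lag3* (0.969), *Dyrk1a* for *Havcr2* (0.905), *Hspa5* for *Tigit* (0.953), *Psd* for *Btla* (0.986), *Pik3cd*, a catalytic subunit of the PI3-kinase, for *Icos* (0.989), and *Tecr* for *Tox* (0.971).

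Genes that work with these receptors were counted in 6 hand-written lists, chosen with earlier results of these data known. Their counts stand against 14.3% of all tested genes that rose and 13.1% that fell with EpA, and 7.69% and 6.31% with fatostatin. Of the ligands and counter-receptors, 3 of 15 tested (20.0%) rose and 4 (26.7%) fell with EpA (median log2 fold change of 0.10), and 3 rose and 2 fell with fatostatin. *Cd80*, a ligand of both CD28 and CTLA-4, rose from 1.19 ± 0.043 FPKM with DMSO to 1.77 ± 0.13 with EpA (log2 fold change of 0.54, SE 0.066, adjusted p = 0.000119) and to 2.81 ± 0.081 with fatostatin (log2 fold change of 1.17, SE 0.066, adjusted p = 4.53e-07), and with both it averaged 2.96 ± 0.12. *Lgals9*, which encodes the TIM-3 ligand galectin-9, fell with EpA from 64.7 ± 1.4 to 51.5 ± 0.083 FPKM (log2 fold change of -0.33, SE 0.026, adjusted p = 4.49e-06) and rose with fatostatin to 73.0 ± 1.2 (log2 fold change of 0.17, SE 0.026, adjusted p = 0.00097). *Lgals3*, which encodes galectin-3, a reported ligand of LAG-3, fell in all 4 comparisons, from 23.9 ± 0.84 FPKM with DMSO to 13.4 ± 0.43 with EpA, 6.76 ± 0.32 with fatostatin and 4.10 ± 0.62 with both.

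Of 20 other inhibitory and costimulatory receptors tested, 5 rose and 10 fell with EpA (median log2 fold change of -0.21), and 5 rose and 4 fell with fatostatin. *Cd96*, which like TIGIT binds CD155, fell from 25.5 ± 1.3 FPKM with DMSO to 17.1 ± 0.73 with EpA (log2 fold change of -0.57, SE 0.045, adjusted p = 4.45e-06) and was lowest with both, 12.4 ± 0.46. *Slamf6* fell from 1.76 ± 0.066 to 0.887 ± 0.032 FPKM with EpA (log2 fold change of -0.91, SE 0.085, adjusted p = 1.47e-05) and averaged 1.93 ± 0.19 with fatostatin. *Pecam1*, an adhesion molecule with an inhibitory tail, fell from 2.78 ± 0.14 to 2.01 ± 0.15 FPKM with EpA (log2 fold change of -0.45, SE 0.077, adjusted p = 0.00113). *Cd200r1*, the receptor for CD200, had the other pattern: it fell from 5.26 ± 0.24 FPKM with DMSO to 2.49 ± 0.19 with fatostatin (log2 fold change of -1.05, SE 0.074, adjusted p = 3.01e-06) and did not pass the test with EpA (adjusted p = 0.276).

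Of 28 signaling proteins that act at the receptor tails, 1 rose and 14 fell with EpA, and 2 rose and 16 fell with EpA in cells on fatostatin, with median log2 fold changes of -0.099 and -0.11. With fatostatin 7 rose and 5 fell. *Cblb*, a ubiquitin ligase that restrains T cells lacking CD28 signals, fell with EpA from 10.6 ± 0.38 to 7.45 ± 0.14 FPKM (log2 fold change of -0.51, SE 0.036, adjusted p = 2.29e-06) and rose with fatostatin to 13.9 ± 0.43 (log2 fold change of 0.39, SE 0.036, adjusted p = 2.94e-05). *Carmil2*, which couples CD28 to the cytoskeleton, fell with EpA from 13.6 ± 0.55 to 10.7 ± 0.091 FPKM (log2 fold change of -0.35, SE 0.039, adjusted p = 6.62e-05). *Fyn*, a kinase of the antigen receptor, fell from 30.1 ± 0.67 to 25.1 ± 0.28 FPKM (log2 fold change of -0.26, SE 0.029, adjusted p = 5.4e-05).

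Of 17 genes for turnover and surface traffic of the receptors, 2 rose and 4 fell with EpA (median log2 fold change of -0.018), and 2 rose (11.8%) and 1 fell (5.88%) with fatostatin, the latter counts near the 7.69% and 6.31% of all tested genes. The largest change was in *Trat1*, whose product TRIM helps bring CTLA-4 to the cell surface. Its FPKM were 7.13, 6.90 and 7.37 with DMSO, 2.54, 2.74 and 2.43 with EpA, 13.9, 14.2 and 15.1 with fatostatin and 4.98, 5.04 and 5.07 with both. It fell with EpA (log2 fold change of -1.44, SE 0.048, adjusted p = 7.95e-09) and rose with fatostatin (log2 fold change of 1.00, SE 0.048, adjusted p = 1.21e-07). *Ctla4* itself was higher with each, though its call with EpA was lost when any 1 library of the groups compared was left out. *Cmtm6*, which protects PD-L1 from degradation, rose with EpA from 30.6 ± 0.89 to 34.7 ± 0.58 FPKM (log2 fold change of 0.18, SE 0.026, adjusted p = 0.000365) and averaged 30.6 ± 0.48 with fatostatin (adjusted p = 0.959). *Fut8*, the enzyme of core fucosylation on which surface PD-1 depends, fell with EpA from 2.05 ± 0.16 to 1.5 ± 0.068 FPKM (log2 fold change of -0.43, SE 0.1, adjusted p = 0.00831), and *Mgat5*, a glycosyltransferase whose products bind galectins, from 12.9 ± 0.61 to 11.8 ± 0.3 (log2 fold change of -0.13, SE 0.038, adjusted p = 0.0214). *Mgat5* rose with fatostatin to 14.7 ± 0.3 (log2 fold change of 0.18, SE 0.038, adjusted p = 0.00699) and with fatostatin on EpA to 13.6 ± 0.4 (log2 fold change of 0.21, SE 0.038, adjusted p = 0.00312).

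Of 27 transcription factors of activation and exhaustion tested, 3 rose and 17 fell with EpA (median log2 fold change of -0.14), and 7 rose and 5 fell with fatostatin. *Nr4a2* and *Nr4a3* encode orphan nuclear receptors induced by antigen receptor signals. *Nr4a2* rose with EpA from 1.45 ± 0.16 to 3.56 ± 0.13 FPKM (log2 fold change of 1.25, SE 0.089, adjusted p = 2.19e-06), while *Nr4a3* averaged 2.61 ± 0.0085 with DMSO and 2.65 ± 0.1 with EpA and rose with fatostatin to 5.32 ± 0.29 (log2 fold change of 1.00, SE 0.048, adjusted p = 1.21e-07) and with both to 7.61 ± 0.18. *Nr4a3* was the 1 gene of the 6 lists that passed the test of the difference (0.49, adjusted p = 0.0372), a call lost when any 1 of the 12 libraries was left out. *Id3*, an inhibitor of helix-loop-helix factors that marks memory-like cells, fell in all 4 comparisons, from 9.39 ± 0.21 FPKM with DMSO to 4.67 ± 0.16 with EpA, 6.98 ± 0.073 with fatostatin and 3.47 ± 0.17 with both.

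Of 11 activation markers tested, 4 rose and 4 fell with EpA (median log2 fold change of -0.13), and 4 rose and 0 fell with fatostatin. *Tfrc*, the transferrin receptor of dividing cells, rose with EpA from 149.9 ± 1.6 to 197 ± 1.5 FPKM (log2 fold change of 0.40, SE 0.023, adjusted p = 5.19e-07), and *Il7r*, the IL-7 receptor of resting and memory cells, fell from 15.3 ± 0.69 to 10.7 ± 0.25 (log2 fold change of -0.51, SE 0.036, adjusted p = 2.19e-06). *Klf2*, a factor of quiescence, fell from 2.86 ± 0.39 to 1.24 ± 0.19 FPKM (log2 fold change of -1.15, SE 0.17, adjusted p = 0.000481).

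**Figure D4:**
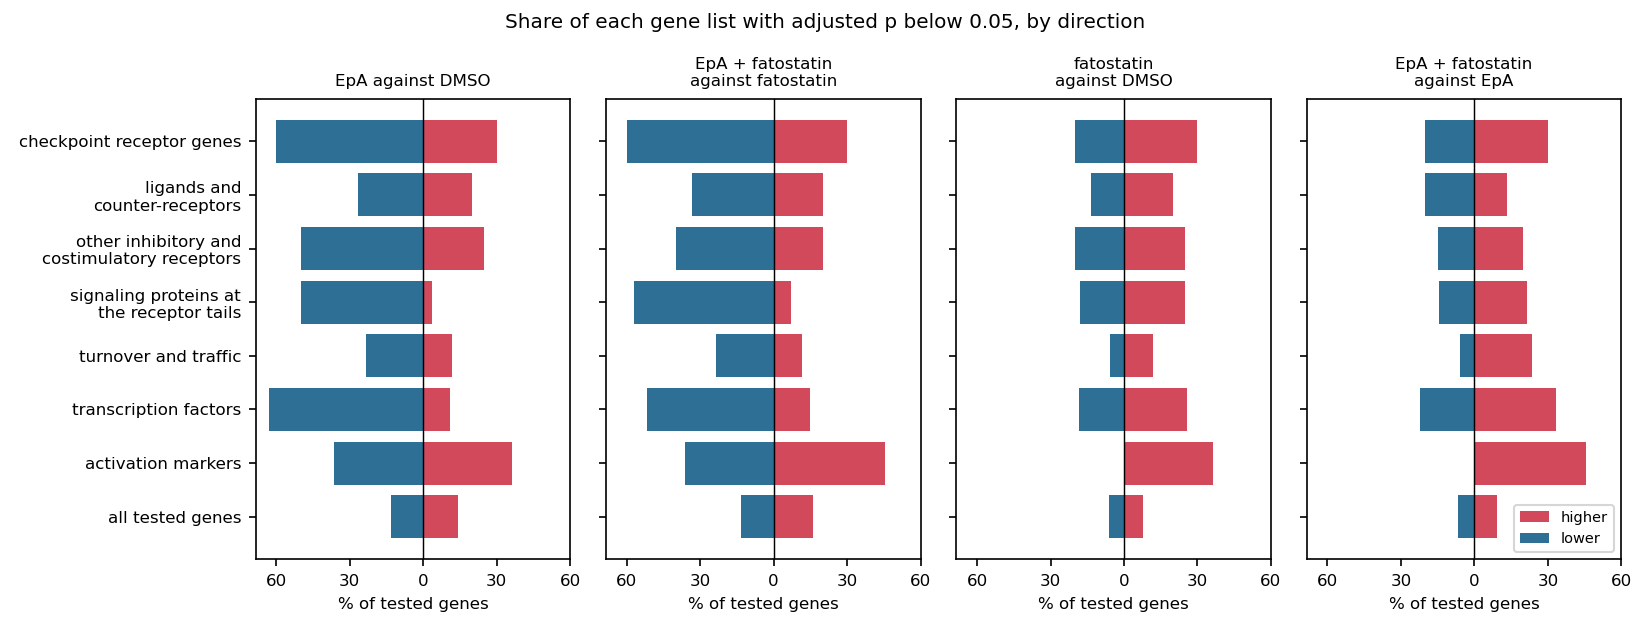
Share of the tested genes of each list (x axis, percent) with an adjusted p below 0.05, higher to the right in red and lower to the left in blue, in the 4 comparisons, with all 13733 tested genes in the bottom row. With EpA the share of lower genes is larger than that of higher genes in the checkpoint genes (6 against 3), the signaling proteins (14 against 1) and the transcription factors (17 against 3), whereas over all tested genes it is 13.1% against 14.3%. The lean is the same in the other receptors (10 against 5), the ligands (4 against 3) and the turnover genes (4 against 2). Activation markers are even (4 against 4).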

How the data were processed

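RNA-seq was measured in 12 libraries of Th9 cells (4 groups of 3). Per the labels and the paper's methods, the authors deposited FPKM made with Trim Galore (trimming), HISAT2 (alignment to GRCm38) and featureCounts (gene counts). Annotation release and strandedness of counting are not given in the sources used here. Of 32352 lines, 301 repeat a gene with identical values; 0 columns were left out. With exon lengths (GENCODE annotation of GRCm38), 98.3% to 98.4% of the values of a library were whole reads within 0.02 read.

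Values were tested as log2(FPKM + 0.1), which understates changes of low genes, in genes averaging 0.1 FPKM or more, with limma 3.58.1 in R 4.3.3. One fit held the 4 group means, and its empirical Bayes step used an intensity trend. Two-sided p-values were Benjamini-Hochberg adjusted over 13733 genes. An exact permutation test of 3 against 3 cannot go below 0.1. The fit was tested on simulated data. SEs and 95% intervals are limma's; SDs are over libraries (n = 3).

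The members and lists were chosen with earlier results of these data known. Named genes are the 10 members, up to 4 genes per list with the largest passing change and at least 1 FPKM, the genes of most similar pattern, and *Il9* and *Srebf1* (2 genes that this rule names are not reported here); *Itgae* and *Stat4* are among the similar genes, and *Clec9a*, *Nkg7*, *Klrd1*, *Ncr1*, *Klrb1c*, *Klra8*, *Il10*, *Tnfrsf18*, *Foxp3*, *Lrrc32* and *Lyz2* were named for their lists' sums. Alternatives changed the pseudocount, filter, scaling, groups fitted, trend, fold threshold, replicate block and libraries. The test on recovered reads (voom of limma) was added after seeing the data. DESeq2, which the authors ran on counts, was not run here.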

Additional observations from a re-analysis of the deposited data

How the results depend on the processing

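Of 840 member values under alternatives, 804 kept direction and side of the threshold, and none of the values past the threshold reversed. The number of members past an adjusted p of 0.05 stayed within 1.5 times in every comparison of 2 groups: without 1 library it was 7 for EpA against DMSO (6 lower and 1 higher, against 6 and 3), 5 for fatostatin against DMSO, 5 to 6 for both compounds against EpA and 9 to 10 for both against fatostatin. Over all tested genes the same setting gave 3021 to 3145, 1401 to 1569, 1661 to 1782 and 3389 to 3640, against 3759, 1922, 2199 and 4051. The number also past 1.5-fold moved more. A pseudocount of 1 gave 1, 0, 1 and 0 in those 4 comparisons, and a fold threshold of 1.2 gave 7, 3, 4 and 8. A minimum mean of 1 FPKM, which removes *Havcr2* and *Tox*, gave 1 for EpA against DMSO and 1 for both against fatostatin. For both against fatostatin, a pseudocount of 0.01 gave 4, median-ratio scaling 4 and voom on recovered reads 5, where all tested genes gave 563, 512 and 645, against 515. Without 1 library it was 1 to 2 for EpA against DMSO, 0 to 1 for fatostatin against DMSO, 2 for both against EpA and 2 to 3 for both against fatostatin. Over all tested genes the numbers past both thresholds were 464, 255, 273 and 515, with a pseudocount of 1 they were 141, 89, 84 and 161, with a minimum mean of 1 FPKM 216, 143, 147 and 252, and with a fold threshold of 1.2 they were 1494, 724, 848 and 1688. For the difference of the EpA effects, voom gave 1 member (*Ctla4*) and 2 related genes, against 0 and 1. Over all tested genes 6 passed this test, 20 with voom, 10 with a pseudocount of 0.01, 1 with TPM scaling, 0 with the replicate block and 0 to 2 without 1 library. The 1 related gene (*Nr4a3*) became 0 with all genes above 0, TPM scaling, median-ratio scaling, the replicate block, and each library left out (0 to 0).

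Values that did not pass the test changed sign when 1 library was left out, with ranges of -0.015 to 0.041 for *Lag3* with fatostatin against DMSO, -0.20 to 0.23 for *Havcr2* and -0.13 to 0.13 for *Tigit* with both against EpA, and, for the difference, -0.017 to 0.065 for *Pdcd1*, -0.34 to 0.080 for *Havcr2*, -0.071 to 0.20 for *Tigit*, -0.017 to 0.087 for *Btla* and -0.0083 to 0.23 for *Tox*. The cause was not tested.

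No pairing of the libraries by replicate number was visible: deviations of 18 same-numbered pairs from their group means had correlations of -0.047 to 0.074. Such correlations over all tested genes could miss a small shared effect. With the number as a block, 8, 5, 5, 9 and 0 members passed (3660, 1810, 2094, 3957 and 0 of all tested genes), and among the members *Cd274* with EpA against DMSO was the one call that differed (adjusted p = 0.0523). TPM and median-ratio scaling moved the median of all genes by less than 0.1 on the log2 scale. Depth limits *Havcr2* (25 to 85 reads) and *Tox* (14 to 108 reads) most.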
